A study of Mus musculus with 2 samples.

Results

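The genes that carry organic osmolytes, water and chloride across the cell membrane, together with the transcription factor of the tonicity response, were examined in skeletal muscle that lacks the glycerophosphocholine phosphodiesterase GDE5. The 9 genes were Nfat5, Slc6a6, Slc5a3, Akr1b3, Slc6a12, Aqp4, Aqp1, Lrrc8a and Slc12a2, out of 27573 gene names on the arrays. They were taken as every gene probe named for 1 of them or for an older or current alias, which gave 20 probes, 1 of them through an alias of Slc5a3. A probe counts as measured where each array had skKO or WT signal well above background, which held for 12 of the 20 probes, and they stood for 8 of the 9 genes.

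The study compared gastrocnemius muscle of Gde5 skKO male mice with that of WT male mice on 2 two-colour Agilent arrays, both at 15 weeks of age on a normal diet. Gde5 skKO mice were HSA-Cre;Gde5 flox/flox animals on a C57BL/6 background, in which Cre is driven by the human α-skeletal actin promoter, so that cells other than muscle fibres keep the gene. The labels call the controls WT, and the methods give Gde5 flox/flox littermates as the controls of the glucose and fasting challenges. The design text names 5 WT and Gde5 skKO mice, and the sources leave unsaid whether RNA was pooled across mice and whether the same extracts went on both arrays. The study speaks of arrays after a glucose injection and in fasting, but no label ties either state to these 2 arrays. The arrays are treated here as 2 readings of one contrast, and if their feeding state differed, it cannot be told apart from the dye swap, and each mean or gap between arrays would span both states. The dyes were swapped: on array 1 skKO RNA carried Cy5, and on array 2 it carried Cy3. Each ratio is given as log2 of skKO over WT, and 2 arrays limit the precision of every value.

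Cells balance osmotic stress by taking up or making small neutral solutes such as taurine, myo-inositol, betaine and sorbitol, and glycerophosphocholine, the substrate of GDE5, is itself one of these osmolytes. Nfat5, also called TonEBP, is the transcription factor that raises their transporters and synthetic enzyme when tonicity rises. Skeletal muscle is rich in taurine, and its fast fibres carry the water channel aquaporin 4 in the sarcolemma, anchored through the dystrophin complex.

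The deleted gene checked the labels. Of the 4 probes for Gde5 (listed as Prei4), 3 read between -3.29 and -2.59 on the 2 arrays, and the remaining one read -0.05 and -0.47. On arrays 1 and 2, 53.2% and 44.6% of spots were well above background in the skKO channel, and 45.6% and 47.4% in the WT channel. Over 13607 measured genes the median ratio was 0.01, and 54.4% of genes had the same direction on both arrays. Of the 7 muscle markers all were measured, and the defining Acta1 and Ckm read log2 signals of 16.35 to 16.69 and 15.99 to 16.22 over both genotypes and arrays.

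A gene was called when its brightest measured probe had a p-value under 0.05 from the scanner software, here called the spot p, on both arrays with the same direction. By this rule 0 of the 8 measured osmolyte genes were called, where 3.31% of all 13607 measured genes were (1.73% lower and 1.58% higher in skKO). The limma moderated test on the same arrays gave 0 of 8 after Benjamini-Hochberg adjustment and 3 of 8 at an unadjusted p under 0.05, Aqp4, Lrrc8a and Slc6a6, where 8.53% of all genes passed at that level. Taken probe by probe, 1 of the 12 was called, a probe of Slc6a6, beside 3.07% of all 19103 measured probes. On array 1 alone 5 of the 12 passed, beside 13.1% of probes, and on array 2 alone 3 of the 12 passed, beside 14.0%. The spot p covers the error of spots within 1 array, so it does not speak for the spread between mice.

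**Figure D1:**
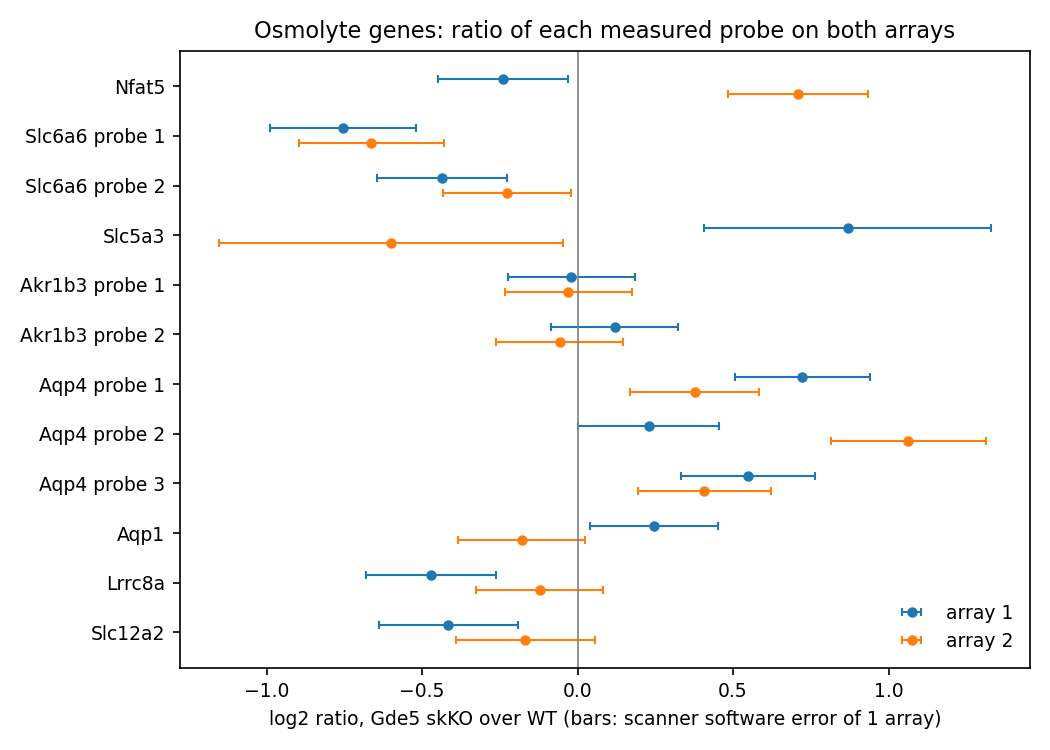
Log2 ratio of Gde5 skKO over WT for the 12 measured probes of the osmolyte genes (one row a probe, numbered by position where a gene has several), with blue points for array 1, orange points for array 2 and bars for the error the scanner software gives a single array. Both Slc6a6 probes lie left of 0 and all 3 Aqp4 probes right of 0 on both arrays. Nfat5, Slc5a3, Aqp1 and Akr1b3 probe 2 change side between arrays.

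Slc6a6, the sodium- and chloride-coupled taurine transporter, read lower in skKO muscle at both of its probes on both arrays. The probe at chr6:91715303-91715805 (mm8, plus strand), whose alignment spans 503 bases, gave processed signals of 165 in skKO and 278 in WT on array 1, and 184 and 291 on array 2. Each array gave the lower value to skKO, and 53.8% of all measured probes had the same direction on both arrays. The log2 ratios were -0.75 and -0.66 (spot p 0.0013 and 0.0046), a mean of -0.71 with a 95% interval from the spot errors of -1.03 to -0.38, or 0.612 times the WT signal.

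The brighter Slc6a6 probe, at chr6:91724130-91724189, carries the gene's main value. It read 4618 in skKO and 6250 in WT on array 1, and 4678 and 5478 on array 2. Here too each array gave the lower value to skKO, but by less. Its ratios were -0.44 and -0.23, with a mean of -0.33, and the spot p was 0.036 on array 1 and 0.27 on array 2, so this probe was not called. On the limma scale the brighter probe read -0.34 and the called one -0.30, so there the called probe was not the lower. The limma test gave adjusted p = 0.30 for the brighter probe and 0.38 for the called one, over all measured probes.

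Slc5a3, the sodium-coupled myo-inositol transporter, was near the detection limit. Its own probe, at chr16:91967980-91968039 (mm8, plus strand), read 30.3 in skKO and 38.0 in WT on array 1, and 38.1 and 29.2 on array 2, and of these 4 values the skKO value on array 1 alone was well above background. The second probe, at chr16:91975895-91975954, is named on the array for an expressed sequence tag that RefSeq lists as another name of Slc5a3, and its annotation is a testis cDNA without a product. It was well above background only in the Cy5 channel of each array, skKO on array 1 and WT on array 2, with ratios of 0.87 and -0.60. Its direction thus followed the dye, and no direction can be given for the genotype.

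Slc6a12, the betaine and GABA transporter, had 1 probe, at chr6:121331142-121331201 (mm8, plus strand), which was not well above background in either genotype on either array. Its signals were 23.2 in skKO and 10.04 in WT on array 1, and 10.7 and 12.4 on array 2, and no ratio is drawn from them. Slc6a12 is shown by sequence because it was the only one of the genes whose promoter window held the core of the tonicity-responsive enhancer, TGGAAA, searched on both strands. RefSeq windows of 250 bases before to 50 after a transcript start were at hand for 5 of the 9 genes, 9 windows in all, and the core lay in 1 of the 5 windows of Slc6a12. It occurred in 21.4% of all 32851 mouse windows. The stretch, at chr6:121342487-121342516 (GRCm38.p6, plus strand), is given below with the core in capitals.
Slc6a12: gcaggtacttggTGGAAAactccagtctgt

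Akr1b3, the aldose reductase that makes sorbitol from glucose, showed no difference beyond the spot error. Its brightest probe, at chr6:34234192-34234251 (mm8, minus strand), read 14911 in skKO and 15121 in WT on array 1, and 14713 and 15026 on array 2. The genotypes differed by less than the spot error, at ratios of -0.02 and -0.03 and a 95% interval of the mean from -0.31 to 0.26. The second measured probe, at chr6:34236756-34239171, gave 0.12 and -0.06. Another probe named Akr1b3 maps to chr1:55390116-55390175, away from the gene, and was not well above background.

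Nfat5 had 6 probes on chromosome 8, of which 1 was measured, at chr8:110268323-110268382 (mm8, plus strand). Its signals were 554 in skKO and 654 in WT on array 1, and 644 and 394 on array 2. The groups overlapped, and on both arrays the Cy3 channel was the brighter. The ratios were -0.24 (spot p 0.25) and 0.71 (0.0017), with a mean of 0.23 and a 95% interval of -0.07 to 0.53 from spot errors alone, which leaves out the gap of 0.95 between arrays. The other 5 Nfat5 probes, between positions 110214081 and 110259549, read from 8.51 to 45.4 in every channel and were not measured.

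Aqp4, the water channel of the fast-fibre sarcolemma, read higher in skKO muscle at all 3 of its probes on both arrays, although none passed the scanner threshold on both. The probes lie within 696 bases of each other on the minus strand of chromosome 18 (mm8), so they are not independent measurements. The brightest, at chr18:15536006-15536065, read 677 in skKO and 410 in WT on array 1, and 830 and 639 on array 2. Each array gave the higher value to skKO.

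The ratios of this Aqp4 probe were 0.72 and 0.38 (spot p 8.6e-04 and 0.071), a mean of 0.55 with a 95% interval of 0.25 to 0.84, or 1.46 times the WT signal. At chr18:15536475-15536534 the signals were 237 against 203 on array 1 and 316 against 151 on array 2, ratios of 0.23 (spot p 0.31) and 1.06 (spot p 2e-05). At chr18:15536642-15536701 they were 362 against 248 and 379 against 285, ratios of 0.55 (spot p 0.011) and 0.41 (spot p 0.057). In every probe each array gave the higher value to skKO, and 53.8% of all measured probes had the same direction on both arrays. The sizes differed between probes and arrays, and the limma test on the brightest gave 0.36 with an adjusted p of 0.38.

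**Figure D2:**
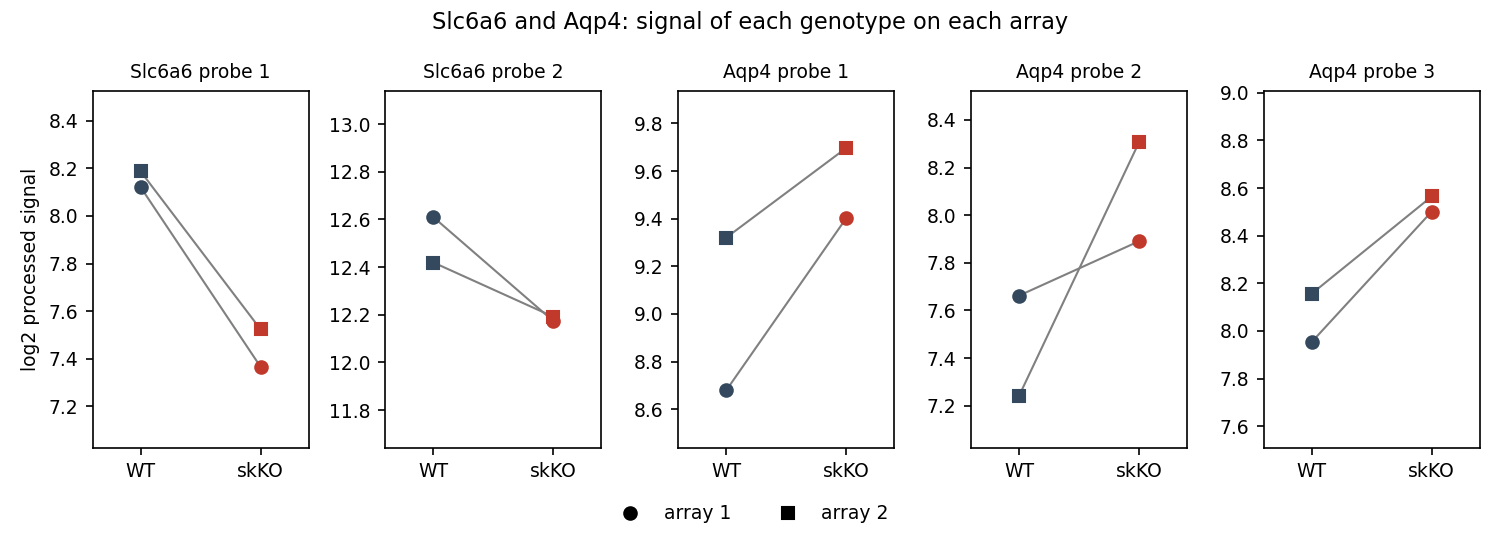
Log2 processed signal of the 2 Slc6a6 probes and the 3 Aqp4 probes in WT (dark) and skKO (red), with lines joining the channels of one array (circles array 1, squares array 2), and each panel spanning the same log2 range around its own level. Every line runs down from WT to skKO for Slc6a6 and up for Aqp4, steepest for Aqp4 probe 2 on array 2, from 7.24 to 8.31.

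Fibre type markers were read beside Aqp4. Of 7 fast-fibre markers 0 were called by the scanner rule and 1 passed limma's unadjusted 0.05, with a median of -0.19, 6 of them lower on both arrays, and a summed signal of 417489 to 459105 in skKO and 468500 to 502375 in WT. Of 8 slow-fibre markers 2 were called (Tnni1 at 0.67 and Myl2 at 0.84), 5 passed limma's unadjusted 0.05 and 7 were higher on both arrays, with a median of 0.38 and a summed signal of 139615 to 142603 in skKO and 100397 to 103295 in WT. All markers on both lists were measured. Of all measured genes 3.31% were called and 8.53% passed limma's unadjusted 0.05. The part of the fibre markers in the Aqp4 values was not tested. As the tissue was whole muscle, fewer cells of a type and less RNA per cell cannot be told apart.

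Aqp1, the water channel of capillary endothelium and red cells, had 1 probe, at chr6:55278064-55278123 (mm8, plus strand). It read 10560 in skKO and 8910 in WT on array 1, and 7979 and 9039 on array 2. The groups overlapped, and Cy5 was the brighter channel on both arrays. The ratios of 0.25 and -0.18 gave a mean of 0.03 with a 95% interval of -0.25 to 0.32. All 10 endothelial markers were measured, with a median of 0.03 and 1 called, Kdr at 0.42, beside 3.31% of all measured genes. Their summed signal ran from 32449 to 36353 in skKO and 33289 to 34462 in WT. Of 6 red cell markers 4 were measured, with a median of -0.18 and a summed signal of 11564 to 11697 in skKO and 12472 to 12880 in WT.

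Lrrc8a, the obligatory subunit of the volume-regulated anion channel through which taurine and chloride leave swollen cells, had 1 probe, at chr2:30085576-30085635 (mm8, plus strand). It read 2203 in skKO and 3053 in WT on array 1, and 2578 and 2804 on array 2. Each array gave the lower value to skKO. The ratios were -0.47 (spot p 0.024) and -0.12 (0.55), a mean of -0.30, so the gene passed on array 1 alone and was not called. The limma adjusted p was 0.60.

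Slc12a2, the sodium-potassium-chloride cotransporter NKCC1 that loads cells with chloride, had 1 probe, at chr18:58071427-58071486 (mm8, plus strand). Its signals were 178 in skKO and 238 in WT on array 1, and 210 and 236 on array 2. Each array again gave the lower value to skKO, though on array 2 the gap was within the spot error. The ratios were -0.42 (spot p 0.062) and -0.17 (0.45), a mean of -0.29 with a 95% interval of -0.60 to 0.02.

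Markers of other tissues were read beside these values. Of 7 adipocyte markers 6 were measured and 5 called lower (Adipoq, Plin1, Cidec, Retn and Cfd, each at -0.69 or below), while Fabp4 read 0.05 and Lep was not measured. The summed signal of the list was 41144 to 43232 in skKO and 43777 to 45066 in WT. Fabp4, at log2 signals of 15.12 to 15.25, made up most of this sum, and the next brightest, Cfd, read 12.54 at most. The sum therefore says little about the 5 called markers. Of 5 kidney markers 2 were measured and 1 called lower, Kap at -1.82, and of 5 measured liver markers Ahsg was called lower and Apoh higher. Fibroblast and leukocyte markers gave 0 calls by the scanner rule, with 0 of 5 and 0 of 4 past limma's unadjusted 0.05. Of all measured genes 3.31% were called and 8.53% passed that limma level. The part of these markers in the lower values of Slc6a6, Lrrc8a and Slc12a2 was not tested.

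Set beside each other, the 12 measured probes were higher in skKO on both arrays in 3 cases, all of Aqp4, lower on both in 5, and opposite in 4. Thus 8 of the 12 had the same direction on both arrays, beside 53.8% of all measured probes. Probes of 1 gene are not independent, so the count of probes overstates the agreement. The 5 lower ones were both probes of Slc6a6, the brightest probe of Akr1b3, Lrrc8a and Slc12a2. By the brightest measured probe the median of the 8 measured genes was 0.0036, against 0.01 for all measured genes. The gap between arrays was 0.21 for the brightest Slc6a6 probe and 0.95 for that of Nfat5, beside a median gap of 0.22 over all measured genes. The called Slc6a6 probe had a gap of 0.09, but a call on both arrays itself favours a small gap.

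**Figure D3:**
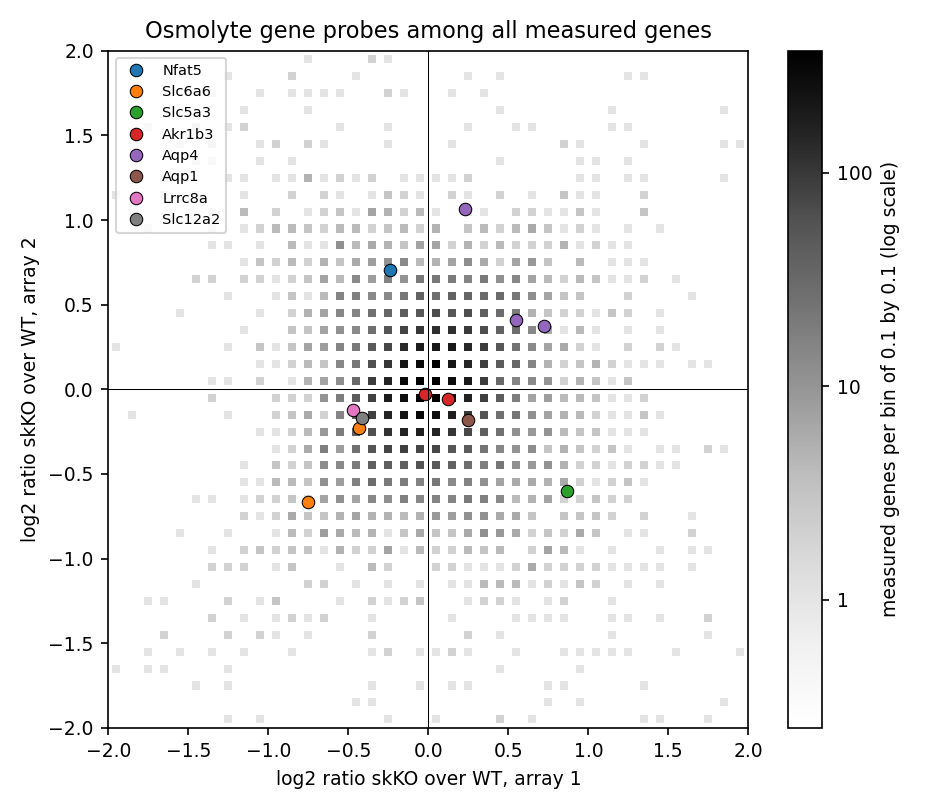
Log2 ratio of skKO over WT on array 1 (horizontal) against array 2 (vertical), with the 13607 measured genes as grey bins shaded by their number and the 12 osmolyte gene probes as coloured points. The called Slc6a6 probe lies at -0.75 and -0.66 in the lower left, and the Aqp4 probes in the upper right. Nfat5, Slc5a3, Aqp1 and the second measured Akr1b3 probe lie in the quadrants where the arrays disagree.

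The other genes of osmolyte and volume handling were described by 10 lists of 77 genes, of which 51 were measured. Of these 51, 2 were called higher, Hspa1a and Slc16a6, and 0 lower, where 3.31% of all measured genes were called, and the median was 0.03 against 0.01 over all genes. By limma 1 passed after adjustment, Hspa1a, and 7 passed unadjusted, where 8.53% of all measured genes did. Of these 7, 3 had lower values at their brightest probe (Dmd, Slc38a2 and Slc6a9).

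Among other tonicity response genes 1 of 10 was called. Hspa1a, an inducible heat shock protein 70 that also rises with other stresses, was called higher at all 3 of its measured probes, with ratios of 1.32 and 1.12 at the brightest and a limma adjusted p of 0.0053 over all measured genes. No probe was named for its near-identical neighbour Hspa1b, whose RNA these probes may also bind. Slc38a2, a sodium-coupled neutral amino acid carrier, was lowest by its brightest probe, at -0.82 (spot p 1.6e-04) and -0.21 (spot p 0.32). Its 4 measured probes disagreed: another read -0.03 and 0.58, and the mean over all its probes was -0.21.

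The enzymes of osmolyte synthesis and breakdown gave 0 calls of 8 measured by the scanner rule and 1 by limma unadjusted. The lowest was Cdo1, the cysteine dioxygenase that opens taurine synthesis, at -0.40 (spot p 0.28) and -1.47 (spot p 8.8e-04). The highest was Csad, the next enzyme of that route, at 0.54 (spot p 0.012) and 0.31 (spot p 0.15). Cdo1 had low signal, at log2 values of 4.77 to 6.23, and limma gave it -0.14 (unadjusted p 0.20). Of Slc6a6, Cdo1 and Csad none was called by the brightest probe, so no common direction of the taurine genes is drawn from them.

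Other osmolyte carriers had 1 of 6 called. Slc16a6, a monocarboxylate carrier of ketone bodies and taurine, was higher at 0.52 and 0.77 by its only measured probe. Slc6a9, a glycine transporter, was lowest at -0.40 (spot p 0.055) and -0.70 (spot p 0.0012). Of 9 other aquaporins 2 were measured, Aqp7 at a mean of 0.25 and Aqp11 at 0.23, and neither passed on either array.

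The proteins that hold Aqp4 in the sarcolemma gave 0 calls of 4 measured, with 2 past limma's unadjusted 0.05 in opposite directions. Dag1, the dystroglycan that links dystrophin to the matrix, was highest at 0.09 and 0.43, and Dmd, dystrophin itself, lowest at -0.54 and -0.29.

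Among the partners of Lrrc8a and Slc12a2, and of Nfat5, 0 of 21 measured genes were called by the scanner rule, and 0 passed limma's unadjusted 0.05. Of the channel subunits Lrrc8c was lowest at -0.09 and Lrrc8e highest at 0.17. Lrrc8e had opposite readings of 0.70 and -0.37, at low log2 signals of 4.83 to 5.64. Of the cotransporters Slc12a4 was highest at 0.05, from readings of -0.19 and 0.30. Of the kinases that regulate them Oxsr1 was lowest at -0.12 and Stk39 highest at 0.43, by the brightest probe. The 3 measured probes of the kinase Wnk1 disagreed. Its brightest read -0.05 and -0.09, another 1.67 (spot p 0.0013) and 0.44 (0.33), and the remaining one 0.63 (0.020) and -0.67 (0.029). The mean over all Wnk1 probes was 0.44. Nfatc2 and Nfatc4 bounded the other NFAT factors at -0.08 and 0.15, and Atm and Parp1 the regulators of Nfat5 at -0.23 and 0.11. Nfatc2 (0.27 and -0.44) and Atm (0.20 and -0.65) also read in opposite directions on the arrays.

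**Figure D4:**
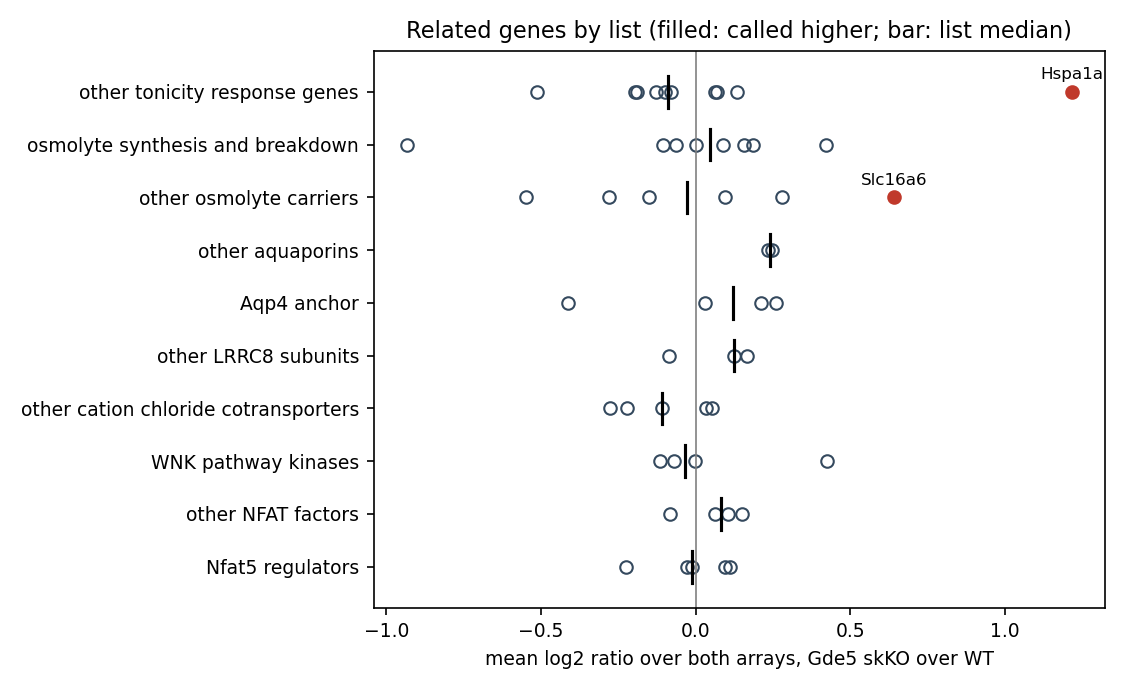
Mean log2 ratio of skKO over WT over both arrays (horizontal) for the 51 measured related genes, one row a list, with open circles for genes not called, filled circles for genes called higher and a bar at each list's median. The filled circles are Hspa1a at 1.22 and Slc16a6 at 0.64, and the list medians lie between -0.11 and 0.24.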

How the data were processed

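RNA of gastrocnemius muscle was hybridised to 2 Agilent 44K two-colour arrays with swapped dyes, on 1 slide and in 1 scan. RNA was isolated with QIAzol, followed per the methods by an RNeasy lipid tissue kit. The authors deposited the scanner output of Agilent Feature Extraction (9.5.3.1 per the file headers, 9.5 per the labels), which holds mean and background intensity, background-subtracted and dye-normalized processed signals, a log10 ratio (red over green channel) with its error, and a p-value for each ratio. The log10 values in the deposited series table served as an alternative.

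Control spots, outlier spots (164 and 200) and spots whose local background exceeded 2 times their signal (7 and 0) were left out of 43379 gene spots per array. Ratios were turned to skKO over WT, converted to log2 from the deposited log10 values, and averaged over spots of a probe. Genes were named through RefSeq (GRCm38.p6) by accession for 24331 probes, symbol for 6297 and synonym for 2414, and 8070 kept their array name. Probe coordinates are those of the array files (mm8), for which no annotation of exons and introns was used here. A gene took its brightest measured probe, and was called at p under 0.05 on both arrays with the same direction. The 95% intervals come from the scanner's spot errors. The limma test (limma 3.58.1, R 4.3.3) used normexp with an offset of 50 and loess within arrays, and its adjusted p is over all measured probes unless stated. These tests measure the spread between 2 hybridizations, not between mice.

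The genes, the lists of related genes and markers, and the tests were chosen with earlier results of these data known. Named from each list were the called genes and those with the highest and lowest mean ratio. Acta1, Ckm, Lrrc8b, Wnk1 and the single markers were named after their values were seen. One gene that this rule names is not reported here. Tested on simulated data with the arrays' own spot errors, the call on both arrays recovered known changes, all larger than the mean ratio of any osmolyte probe. The simulated noise came from the same errors that gave the p-values, so recovery was largely built in. The simulation cannot show how often the call misses changes of the size read here. In it the limma adjusted test also passed unchanged genes above its nominal rate. Python 3.11.15, pandas 2.3.3 and scipy 1.17.1 were used.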

Additional observations from a re-analysis of the deposited data

How the results depend on the processing

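The scanner rule called 0 of the 8 measured osmolyte genes, 2 of the 51 related genes and 3.31% of all genes. With limma unadjusted the counts were 3 and 7 beside 8.53% of all genes, and with limma adjusted 0 and 1 beside 0.801%. Student's t-test, which the methods give for comparing groups in general, was run unpaired on the channel values. It thus ignored that skKO and WT share an array. Unadjusted it gave 1 (Slc6a6) and 3 beside 6.72%, and adjusted 0 of either and 0 of all genes. At a spot p under 0.01 the counts were 0 and 1 beside 1.72%, and with any probe of a gene allowed 1 (Slc6a6) and 2 beside 3.95%. A single array gave 1 to 3 osmolyte genes (Nfat5 on array 2, Aqp4, Lrrc8a and Slc6a6 on array 1) and 8 to 9 related ones, beside 12.2% to 13.9% of all genes. Without the signal filter 3 related genes were called, the added one being Lrrc8b, lower at -1.75 and -1.56, whose probe was not well above background in either genotype on array 1. Averaging all probes, or the measured ones, moved Slc6a6 to -0.52. Under limma Nfat5 went from 0.23 to 0.036, Slc5a3 from 0.13 to -0.0018, Slc12a2 from -0.29 to -0.16 and Aqp4 from 0.55 to 0.36. The called Slc6a6 probe went from -0.71 to -0.30 under limma, and to -0.36 without background correction. Akr1b3 read -0.036 under limma, -0.037 without background correction, 0.028 over all probes and 0.0031 over the measured ones, the last a choice made after seeing the data. Over 7 alternatives each, Aqp4, Lrrc8a, Slc12a2 and Slc6a6 kept their sign, and Akr1b3, Aqp1, Nfat5 and Slc5a3 did not. These alternatives include each array alone and the series table, which holds nearly the same ratios. They also include averages over probes, which change nothing for Aqp1, Lrrc8a and Slc12a2 with 1 probe each. A kept sign therefore largely repeats that the arrays had the same direction. The cause of the shifts between settings was not tested. Low signal limits Slc6a12, both Slc5a3 probes and 5 of 6 Nfat5 probes, and related genes such as Cdo1 and Lrrc8e. Both arrays were on 1 slide, so slide as a block was not run. Each ratio, and so the limma test, already pairs skKO with WT within an array, and the labels give no numbers that pair mice.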
